A study of Homo sapiens with 54 samples.

Results

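The type I interferon response was examined through 35 genes of known role: the interferon gene IFNB1, the RNA sensor gene IFIH1, the signalling factors IRF1, IRF3, IRF7, IRF9 and STAT2, the feedback gene USP18, 24 effector genes and 3 chemokine genes. They were taken by name from 58735 genes of a bulk RNA table and read again in single cells. All 35 were found in both. The cells were macrophages made from H1, a line of human embryonic stem cells, by differentiation on a porous 3D microscaffold or in flat 2D culture, and the series asks how the 3D niche shapes their transcriptome.

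Type I interferon is the alarm signal that a cell releases after it senses foreign nucleic acid or bacterial lipopolysaccharide. Sensors and Toll-like receptors activate IRF3, which with NF-kB switches on IFNB1. Secreted interferon beta then binds the IFNAR1 and IFNAR2 receptor, the kinases JAK1 and TYK2 phosphorylate STAT2 among other substrates, and STAT2 joins IRF9 in a complex that switches on the effectors, while USP18 damps the receptor. Macrophages are a main source of interferon beta after contact with bacteria.

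The bulk table holds 32 libraries in 11 groups, in TPM, a level scaled for gene length and for the total of the library. The 10 groups of 3D macrophages were those exposed to E. coli (2 libraries), those labelled SP14 and SP6A (2 each), those with FBS in the label at days 16, 19 and 23 (3 each), those without FBS at days 16, 19 and 23 (3 each) and those of day 12 (4). The other group was 2D macrophages of day 12 (4). All groups come from the same line with no genetic change named. What SP14 and SP6A stand for, the day of their libraries, and the day, dose and length of the E. coli exposure, are not given in the labels. Nothing in the labels says that replicates of a group came from separate cultures. The p-values therefore measure the spread between these libraries, pooled over the groups that were fitted together, and that spread may be technical. The depth of the bulk libraries is unknown, because TPM keep no read totals, and the SMART-seq2 protocol named in the labels keeps no strand.

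The 2 E. coli libraries stood apart before any comparison. They listed 7954 and 8103 genes at 1 TPM or more, against 11862 to 13257 in the other libraries. They correlated at 0.775 with each other on the log2 scale, against 0.943 to 0.980 within the other groups. Mitochondrially encoded genes took 17.2 and 25.2% of their TPM, against 4.24 to 10.9% elsewhere. All 14 macrophage markers checked were detected in each of the 11 groups, with a summed level of 10165 to 25465 TPM. In bulk RNA, fewer cells of a type and less RNA per cell cannot be told apart.

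A difference is given as a log2 change of TPM plus 1, and it was called when its adjusted p from limma was below 0.05 over all genes tested. Within a fit, limma pools the spread of each gene over all groups. Standard errors and p-values for E. coli thus rest on the other 3D groups too, not on the E. coli pair alone. That pair correlated less well than any other group, so these values may look more certain than they are. Whether the libraries of the groups overlap is given for the named genes as a description. The share of all genes without overlap was not counted, so how common it is among other genes is unknown. Genes averaging under 1 TPM in a fit were left out of the test. In the fit of the 28 3D libraries 29 of the 35 genes passed, and USP18, IFI44L, RSAD2, GBP1, CXCL9 and CXCL11 did not. IFNB1 passed only through the E. coli libraries. In the fit of 3D and 2D at day 12, 26 passed, and IFNB1, IFIT5, IFI44, IFI44L, RSAD2, GBP1, CXCL9, CXCL10 and CXCL11 did not.

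The promoters of 8 genes on which the results turn are shown because response elements before the start are how interferon reaches many of its targets. Of the 35 genes, 27 had an entry in the RefSeq promoter table of build GRCh38.p14, and IRF3, IRF7, USP18, IFIT2, MX2, OAS2, OASL and IFITM2 had none. The interferon response element was searched on both strands, as a pair of GAAA runs with any 2 bases between, in the 250 bases before each start. It was found in 19 of the 27 genes (70.4%), against 1014 of 27305 genes in the table (3.71%). The STAT site, searched as TTC and GAA with any 3 bases between, was found in 10 of the 27 (37%), against 8.09% of all genes. The NF-kB site, searched as GGG and TTCC with any 3 bases between, was found in 7 of the 27 (25.9%), against 6.87% of all genes. A match of letters is a description and not a bound site. The 120 bases before a start of each gene follow. IFIT3 has 2 starts in that table, and the downstream one is shown, while the same window before the other start cuts through a match at its edge. The sequences are given 5′ to 3′ on the strand of the gene, from chr9:21077943-21078062 (IFNB1, minus strand), chr10:89332409-89332528 (IFIT3, plus), chr1:1013377-1013496 (ISG15, plus), chr15:88638896-88639015 (ISG20, plus), chr2:162318685-162318804 (IFIH1, minus), chr14:24161145-24161264 (IRF9, plus), chr1:27672193-27672312 (IFI6, minus) and chr11:313920-314039 (IFITM1, plus). Capitals mark a match to the interferon response element, on either strand, in all but IFNB1, where they mark the NF-kB site, and IFIH1, where they mark both.
IFNB1: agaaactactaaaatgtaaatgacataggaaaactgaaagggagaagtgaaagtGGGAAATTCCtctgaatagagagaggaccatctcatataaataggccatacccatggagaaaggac
IFIT3: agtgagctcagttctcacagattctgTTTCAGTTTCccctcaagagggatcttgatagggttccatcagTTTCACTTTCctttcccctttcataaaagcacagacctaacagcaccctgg
ISG15: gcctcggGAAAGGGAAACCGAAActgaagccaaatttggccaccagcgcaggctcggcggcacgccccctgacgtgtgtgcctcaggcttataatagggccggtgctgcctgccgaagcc
ISG20: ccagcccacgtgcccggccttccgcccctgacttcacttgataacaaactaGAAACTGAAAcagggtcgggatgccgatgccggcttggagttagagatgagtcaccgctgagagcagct
IFIH1: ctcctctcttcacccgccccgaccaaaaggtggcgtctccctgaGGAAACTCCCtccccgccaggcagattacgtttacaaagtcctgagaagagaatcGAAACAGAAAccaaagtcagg
IRF9: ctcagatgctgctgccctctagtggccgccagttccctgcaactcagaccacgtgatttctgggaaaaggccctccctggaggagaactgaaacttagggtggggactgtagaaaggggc
IFI6: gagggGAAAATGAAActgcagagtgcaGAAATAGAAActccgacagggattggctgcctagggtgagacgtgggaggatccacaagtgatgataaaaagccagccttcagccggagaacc
IFITM1: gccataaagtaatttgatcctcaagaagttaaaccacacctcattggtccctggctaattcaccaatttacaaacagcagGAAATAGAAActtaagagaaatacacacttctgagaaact
By the letters searched, the window of IFNB1 held the NF-kB site and no match to the interferon response element. GAAA runs with other spacing were not counted. The window of IRF9 held neither of these 2 motifs. STAT sites are not marked by capitals: 1 lay in the IRF9 window, at −63 to −55 from the start, and 1 in that of IFITM1, at −12 to −4. ISG15 carried overlapping matches in 1 run, while IFI6 and IFIT3 carried a pair of separate matches each. ISG20, IFIH1 and IFITM1 carried 1 match each.

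**Figure D1:**
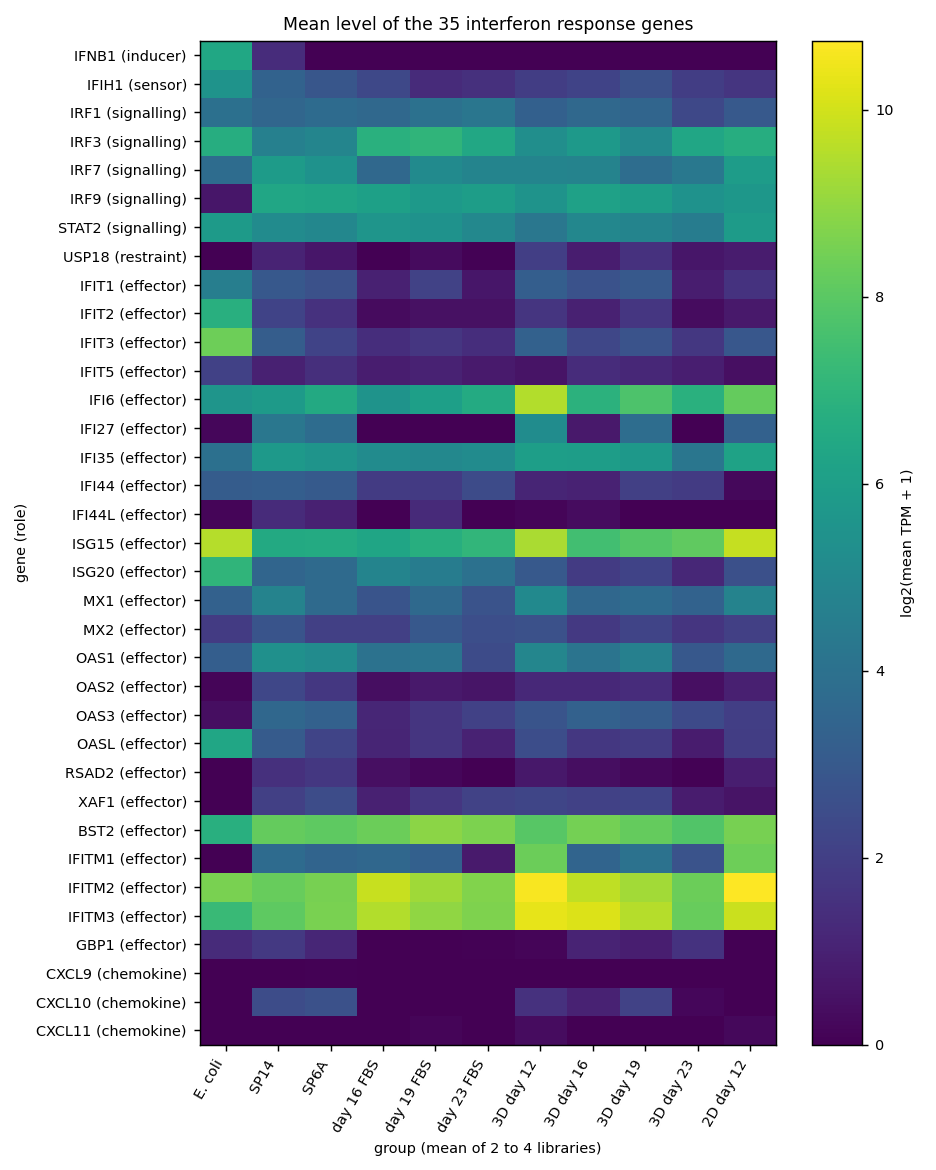
Mean level of each of the 35 genes (rows, with role) in each of the 11 bulk groups (columns), drawn as log2(mean TPM + 1) by colour over 2 to 4 libraries a group. IFNB1 is above 0 in the E. coli and SP14 columns alone, and the IFITM genes, ISG15 and IFI6 hold the highest levels at 3D day 12.

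IFNB1, the inducer, reached its highest bulk level after contact with E. coli. Against the 13 3D libraries of days 12, 16, 19 and 23 without FBS, IFNB1 and a set of early effectors (IFIT2, IFIT3, ISG20, OASL and the sensor IFIH1) stood far higher in the E. coli libraries. Other effectors that were abundant in the same macrophages (IFITM1, IFITM3, IFI6, BST2) and the signalling factor IRF9 stood far lower. Of the 29 tested genes 10 rose, IFNB1 counted among them, and 11 fell, while over all 13384 genes 13.8% rose and 42.7% fell (56.5% in all). The median change of the tested genes was −0.86, beside −0.84 for all genes, a median over genes that moved in both directions.

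IFNB1, the gene of interferon beta, had 58.6 and 107 TPM in the E. coli libraries and was listed at 0 in all 13 unexposed ones. No p is given, because the gene entered the test only through the E. coli libraries. None of the other interferon genes searched passed the low-value filter, so interferon beta was the only interferon tested. IFIH1, which encodes the RNA sensor MDA5, had 50.1 and 40.6 TPM in the E. coli libraries, against 1.22 to 8.64 TPM (median 3.2) in the unexposed ones. It rose by 3.42 ± 0.39 on the log2 scale (adjusted p = 1.41e-07), and the groups did not overlap.

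The signalling factors did not move together. IRF9, the DNA-binding partner of STAT2, had 0 and 1.14 TPM in the E. coli libraries, against 39.7 to 86.3 TPM (median 49.6) in the unexposed ones, and fell by 5.20 ± 0.26 on the log2 scale (adjusted p = 1.73e-13). STAT2 had 40.8 and 73.3 TPM in the E. coli libraries, against 9.7 to 35.7 TPM (median 25.7) in the unexposed ones, and rose by 1.18 ± 0.28 (adjusted p = 0.000986). So within 1 complex a partner gene was nearly undetected while another was above every unexposed library. IRF3, the factor that acts first on IFNB1, had 63.9 and 142 TPM in the E. coli libraries, against 26.0 to 95.03 TPM (median 40.1) in the unexposed ones, and rose by 0.99 ± 0.31 with groups that overlapped (adjusted p = 0.00963). IRF7, which amplifies the interferon response, had 25.6 and 0 TPM in the E. coli libraries, against 9.83 to 38.3 TPM (median 19.6) in the unexposed ones. The call of IRF7 (−2.02 ± 0.64, adjusted p = 0.00989) rested on replicate 2, since without it the change was 0.35 (adjusted p = 0.526). IRF1 had 6.65 and 22.8 TPM in the E. coli libraries, against 3.17 to 16.5 TPM (median 8.02) in the unexposed ones, and was not called.

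The effectors that rose include several that bind or degrade foreign RNA. IFIT3, a member of the family that binds viral RNA, had 234 and 429 TPM in the E. coli libraries, against 0.51 to 12.2 TPM (median 6.92) in the unexposed ones, a log2 change of 5.93 ± 0.55 (adjusted p = 4.64e-09). IFIT2, its neighbour on chromosome 10, had 94.9 and 125 TPM in the E. coli libraries, against 0 to 4.44 TPM (median 1.14), a change of 5.76 ± 0.48 (adjusted p = 7.77e-10). Both were more than an order of magnitude above every unexposed library. ISG20, an exonuclease that degrades RNA, had 205 and 57.2 TPM in the E. coli libraries, against 0 to 11.9 TPM (median 2.19), a change of 4.93 ± 0.70 (adjusted p = 2.98e-06). OASL, a relative of the oligoadenylate synthetases without their enzyme activity, had 71.6 and 89.4 TPM in the E. coli libraries, against 0 to 5.67 TPM (median 2.04), a change of 4.70 ± 0.47 (adjusted p = 1.71e-08). These 4 genes did not overlap between the groups. IFI44 rose by 1.60 ± 0.63 (adjusted p = 0.0352) from a low level, with 4.07 and 11.4 TPM in the E. coli libraries, against 0 to 4.62 TPM (median 1.42).

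ISG15, the ubiquitin-like modifier, had 705 and 786 TPM in the E. coli libraries, against 104 to 746 TPM (median 248) in the unexposed ones, and rose by 1.36 ± 0.27 (adjusted p = 0.000161). Its unexposed range is wide, with day 12 above the later days, and against day 12 alone the change was 0.18 (adjusted p = 0.642). ISG15 therefore stood above days 16 to 23 and level with day 12 within the spread of the libraries.

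Among the effectors that fell, IFITM1, which blocks the entry of viruses at the cell membrane, was listed at 0 in both E. coli libraries, against 2.52 to 345 TPM (median 12.4) in the unexposed ones (adjusted p = 4.96e-06). IFITM3, its relative in endosomes, had 244 and 67.7 TPM in the E. coli libraries, against 265 to 1411 TPM (median 1032), a change of −2.54 ± 0.24 (adjusted p = 7.02e-09). IFI6, which restrains viral replication at the endoplasmic reticulum, had 65.8 and 28.4 TPM in the E. coli libraries, against 92.0 to 753 TPM (median 177), a change of −2.26 ± 0.24 (adjusted p = 4.81e-08). BST2, the tetherin that holds budding virus at the surface, had 176 and 38.6 TPM in the E. coli libraries, against 208 to 363 TPM (median 255), a change of −1.71 ± 0.27 (adjusted p = 1.42e-05). None of these 4 genes overlapped between the groups. OAS3, a synthetase that activates RNase L, had 0.61 and 0.06 TPM in the E. coli libraries, against 2.95 to 13.1 TPM (median 6.36), and fell by 2.46 ± 0.42 (adjusted p = 3.43e-05). IFI35, IFI27, OAS1 and IFITM2 fell by 2.48, 2.17, 1.45 and 1.19 with groups that overlapped. Against day 23 alone all of them lost their calls, and IFI27 was higher by 0.17. The rises of IRF3 and IFI44 also lost their calls there. IFITM1, IFITM2 and IFITM3 are near-identical copies beside each other on chromosome 11, and no source used here says how reads shared between them were split.

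The remaining tested genes (IRF1, IFIT1, IFIT5, MX1, MX2, OAS2, XAF1 and CXCL10) were not called. IFIT1 differed between the E. coli libraries themselves, with 3.15 and 42.7 TPM. CXCL10, a chemokine that draws lymphocytes, was listed at 0 in both, as were CXCL9, CXCL11, RSAD2 and USP18. In the unexposed libraries these genes were low too, with medians of 0.43 (CXCL10), 0 (CXCL9 and CXCL11), 0.12 (RSAD2) and 0.98 TPM (USP18). A listing at 0 in the E. coli libraries therefore says little about a change in them.

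The count depended on the unexposed libraries chosen and on the E. coli library used. Against day 12 alone 22 genes were called (9 higher, 13 lower), and against day 23 alone 17 (10 higher, 7 lower). With each E. coli library left out in turn, the count was 25 without replicate 1 and 15 without replicate 2, where the calls lost were IRF3, IRF7, STAT2, IFI44, OAS1 and IFITM2. With limma array weights 8 were called (3 higher, 5 lower), in place of 21 in the main fit. The share of all genes called was not counted in these alternatives, so the counts show only how the calls depend on the setting. IFNB1 is left aside here, because it entered the test only through the E. coli libraries. Of the other genes, those called under every one of the 25 alternatives were IRF9, IFIT2, IFIT3, IFI6, BST2 and IFITM3. Markers of other cells moved with the group: the 10 markers of mast cells, basophils and eosinophils summed to 1030 and 1822 TPM in the E. coli libraries, against 0 to 860 TPM in the unexposed ones, with 4 of the 10 at 0 in the E. coli libraries. The 12 erythroid markers summed to 0 in 1 E. coli library and to 3484 TPM in the other. The 10 markers of haematopoietic progenitors summed to 95.8 and 126 TPM in the E. coli libraries with 5 at 0, against 2.91 to 52.0 TPM in the unexposed ones. The 8 monocyte markers summed to 1011 and 1186 TPM in the E. coli libraries with 5 at 0, against 1198 to 6574 TPM, and the 14 macrophage markers to 10378 and 12181 TPM, against 13032 to 24259 TPM. The 7 markers of plasmacytoid dendritic cells, professional interferon producers, summed to 54.0 and 57.5 TPM in the E. coli libraries with 3 at 0, against 38.9 to 79.8 TPM in the unexposed ones. The part of these in the result was not tested.

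In the wider pathway, the 21 inflammatory genes driven by NF-kB held 17 that rose and none that fell under E. coli, with TNF at 3583 and 2122 TPM in the E. coli libraries. Of 15 receptor and kinase genes 3 rose and 5 fell, among them IFNAR2, a chain of the interferon receptor, at 1.15 and 0 TPM in the E. coli libraries (−3.53). Of 17 genes that lead to IFNB1 none rose and 6 fell, among them TBK1 and IKBKE, the kinases of IRF3, by 2.05 and 3.70. Of 35 other interferon-stimulated genes 10 rose and 15 fell, and of 17 that lean to interferon gamma 7 rose and 8 fell, with GBP2 higher by 5.29 and PSMB8 lower by 3.72. Over all genes 13.8% rose and 42.7% fell, so the shares that fell in these lists lay near that of all genes or below it.

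**Figure D2:**
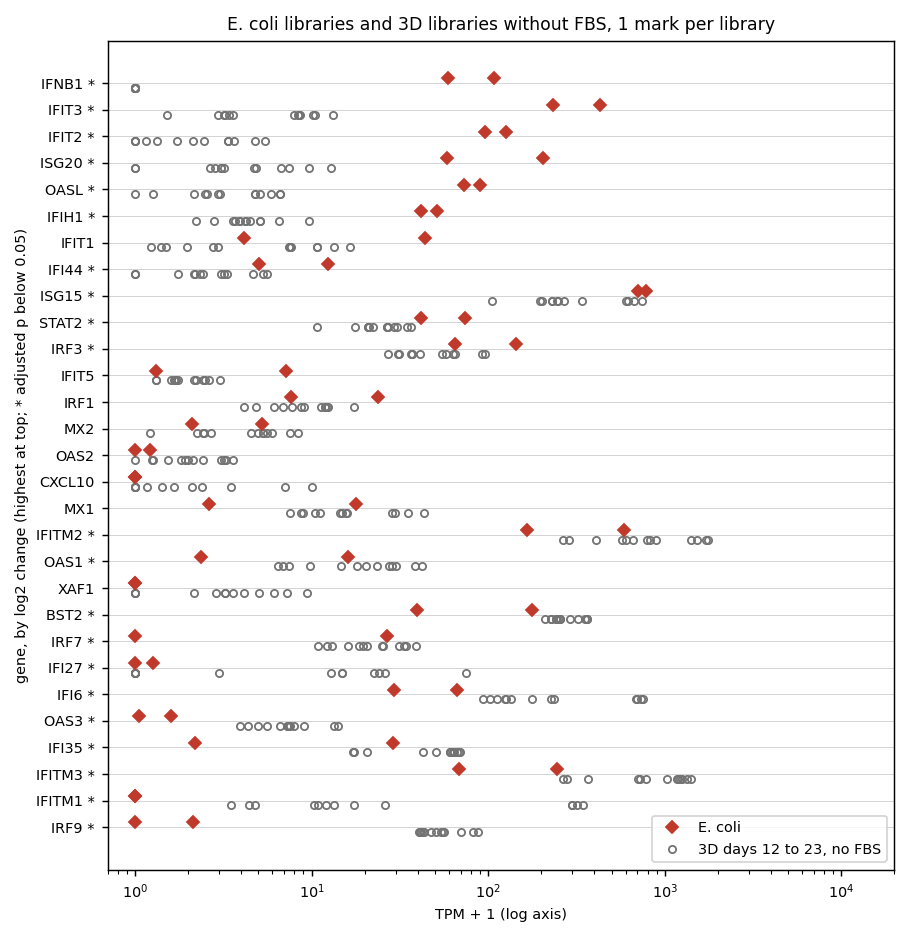
TPM + 1 on a log axis for each tested gene (rows), with 1 mark per library: diamonds for the 2 E. coli libraries and open circles for the 13 3D libraries of days 12 to 23 without FBS. An asterisk marks the 21 genes called. IFNB1, IFIT3, IFIT2, ISG20, OASL and IFIH1 sit to the right of all open circles, and IRF9, IFITM1, IFITM3, IFI6, BST2 and OAS3 to the left.

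SP14 and SP6A, each with 2 libraries, were compared with the 4 libraries of 3D day 12, so both comparisons share the same day 12 libraries. In both groups the abundant effectors IFITM1, IFITM2, IFITM3, IFI6 and ISG15 were far lower than at day 12, while IFI44 was higher. The labels give no day for SP14 or SP6A, so label and culture time cannot be told apart here. IFITM1 averaged 12.35 TPM in SP14 and 10.1 in SP6A, against 10, 15.6 and 5.69 at days 16, 19 and 23 without FBS. IFI6 averaged 57.2 and 91.2 TPM, against 117, 213 and 113 on those days. ISG15 averaged 91.3 and 93.0 TPM, against 176, 233 and 278. SP14 also held low but measurable IFNB1. The signalling factors IRF9 and STAT2 were called higher in SP14 and not in SP6A, where they also lay above every day 12 library. Of the 29 tested genes 5 rose, IFNB1 counted among them, and 5 fell in SP14 (all genes 18.1% and 13.1%, 31.2% in all), and 1 rose and 6 fell in SP6A (all genes 16.9% and 11.3%). The median change was 0.28 in SP14 (all genes 0.09) and 0.00 in SP6A (all genes 0.18).

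IFNB1 had 1.32 and 1.76 TPM in SP14 and was listed at 0 in SP6A and at day 12, given as levels only, since the gene is in this test through the E. coli libraries alone. SP14 was the only group besides E. coli with a value above 0. IFIH1 had 10.5 and 8.51 TPM in SP14, against 2.57, 2.67, 2.86 and 3.28 TPM at day 12, and rose by 1.44 ± 0.45 (adjusted p = 0.0155). STAT2 had 28.2 and 41.4 TPM in SP14, against 16.5, 19.9, 25.9 and 9.7 TPM at day 12, and rose by 0.97 ± 0.32 (adjusted p = 0.022). IRF9 had 79.8 and 81.2 TPM in SP14, against 39.7, 39.9, 55.2 and 41.6 TPM at day 12, and rose by 0.87 ± 0.30 (adjusted p = 0.0284). None of these genes overlapped between SP14 and day 12. In SP6A IRF9 had 70.5 and 81.2 TPM, STAT2 29.8 and 30.7 TPM and IFIH1 5.68 and 7.15 TPM. All were above every day 12 library there, and none was called.

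IFI44, an effector of poorly known function, had 8.11 and 8.13 TPM in SP14 and 6.56 and 7.98 TPM in SP6A, against 0, 2.07, 1.34 and 1.2 TPM at day 12, and rose by 2.19 ± 0.72 in SP14 and 2.05 ± 0.72 in SP6A. ISG15 had 79.5 and 103 TPM in SP14 and 107 and 78.9 TPM in SP6A, against 746, 672, 616 and 605 TPM at day 12, and fell by 2.85 ± 0.30 and 2.82 ± 0.30. IFI6 had 61.7 and 52.7 TPM in SP14 and 89.6 and 92.8 TPM in SP6A, against 696, 686, 753 and 735 TPM at day 12, and fell by 3.63 ± 0.28 and 2.96 ± 0.28. Both effectors were below every day 12 library by a wide margin. IFITM1 had 11.2 and 13.5 TPM in SP14 and 9.68 and 10.6 TPM in SP6A, against 320, 345, 299 and 299 TPM at day 12, and fell by 4.57 ± 0.76 and 4.83 ± 0.76. IFITM3 fell by 2.27 ± 0.27 in SP14 and 1.76 ± 0.27 in SP6A, and IFITM2 by 2.40 ± 0.28 and 2.09 ± 0.28. IFI27 fell by 1.22 ± 0.44 in SP6A (adjusted p = 0.0419), with 12.3 and 13.3 TPM, and had 11.9 and 24.6 TPM in SP14, where it was not called.

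SP14 and SP6A were also set against each other. None of the 29 genes was called by limma, 2 had an unadjusted p below 0.05, and over all genes 8 (0.0598%) were called, 0.0224% higher and 0.0374% lower. The share of all genes with an unadjusted p below 0.05 was not counted. With array weights 4 were called, IFNB1 among them, and without the filter or without the trend 1, which was IFNB1. The 2 with an unadjusted p below 0.05 were IFI6 (−0.67, 95% interval −1.33 to −0.01) and IFNB1. The main fit holds IFNB1 only through the E. coli libraries, so no weight is put on it. For IRF9 the interval ran from −0.62 to 0.80, and for IFIT3 from −0.55 to 2.44, so these libraries leave differences of that size possible. Without SP14 replicate 2, 6 genes were called in SP14 against day 12 in place of 10. The share of all genes called was not counted in these alternatives. With other settings IFIH1, STAT2, IRF9 and IFI44 lost their call in SP14 in at least 1 case, with adjusted p of up to 0.132, 0.275, 0.268 and 0.12. All 4 lost it without SP14 replicate 2, and IRF9 and STAT2 also under median-ratio scaling. In SP6A IFI27 and IFI44 lost theirs without either SP6A library or day 12 replicate 4, with adjusted p of up to 0.344 and 0.198. Scaling by the median ratio moved the median change of all genes to −0.14 in SP14 and −0.06 in SP6A. It turned the split of all calls to 1818 higher and 2406 lower in SP14, against 2417 and 1756 as deposited, and to 1615 and 2146 in SP6A, against 2268 and 1506.

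In the wider pathway, of 15 receptor and kinase genes 8 rose in SP14 and 6 in SP6A, and none fell. Of 17 genes that lead to IFNB1, 7 rose in SP14 and 10 in SP6A, among them the lipopolysaccharide receptor TLR4 (3.14 in SP6A) and its adaptor TICAM1 (3.47 in SP6A). Of 21 inflammatory genes driven by NF-kB 15 rose and 1 fell in SP14, and 16 rose in SP6A. Of 35 other interferon-stimulated genes 7 rose and 1 fell in SP14, with a median change of 0.25, and 6 rose and 3 fell in SP6A, with a median of 0.11, which lies below that of all genes. The 8 monocyte markers summed to 1283 to 1332 TPM in SP14 and 1484 to 1559 TPM in SP6A, against 4640 to 6574 TPM at day 12. The 10 granulocyte markers summed to 37.4 to 52.0 TPM in SP14 and 43.1 to 51.1 TPM in SP6A, against 286 to 434 TPM at day 12, and the 12 lymphoid markers to 36.9 to 38.9 TPM and 27.04 to 28.48 TPM, against 198 to 227 TPM. The 10 endothelial markers summed to 334 to 356 TPM in SP14 and 370 to 380 TPM in SP6A, against 71.2 to 131 TPM at day 12. Their part in the result was not tested.

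Macrophages grown in 3D were compared with those grown in 2D at day 12. The effectors IFIT1, OAS1, IFI6, XAF1 and IFI27, the feedback gene USP18 and IFITM3 were higher in 3D, while the signalling factors STAT2, IRF3 and IRF7 and the abundant effectors BST2 and ISG15 were lower. IFNB1 was listed at 0 in all 8 libraries. Of the 26 tested genes 7 rose and 5 fell, while over all 13131 genes 13.5% rose and 25.2% fell (38.7% in all). The median change was 0.35, beside −0.21 for all genes.

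All 3 signalling factors called were lower in 3D. STAT2 had 16.5, 19.9, 25.9 and 9.7 TPM in 3D, against 55.3, 54.0, 54.8 and 66.4 TPM in 2D, and fell by 1.70 ± 0.26 (adjusted p = 0.000611). IRF3 had 40.1, 53.8, 35.7 and 26.0 TPM in 3D, against 93.1, 89.7, 112 and 118 TPM in 2D, and fell by 1.42 ± 0.21 (adjusted p = 0.000534). IRF7 had 24.1, 38.3, 33.4 and 15.1 TPM in 3D, against 46.3, 61.1, 48.2 and 87.4 TPM in 2D, and fell by 1.14 ± 0.30 (adjusted p = 0.0123). In each of them every 3D library lay below every 2D library. IRF9 and IRF1 were not called, with IRF9 at 39.7, 39.9, 55.2 and 41.6 TPM in 3D, against 35.4, 48.3, 56.4 and 59.9 TPM in 2D. IRF1 had 10.3, 10.9, 7.68 and 5.92 TPM in 3D, against 7.18, 8.8, 5.99 and 6.22 TPM in 2D.

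USP18, the protease that removes ISG15 from proteins and damps the receptor, had 2.93, 2.89, 2.84 and 3.3 TPM in 3D, against 0, 0.4, 0.88 and 1.85 TPM in 2D, and rose by 1.27 ± 0.36 (adjusted p = 0.0179). IFI6 had 696, 686, 753 and 735 TPM in 3D, against 236, 325, 349 and 246 TPM in 2D, and rose by 1.33 ± 0.14 (adjusted p = 6.37e-05). OAS1, an oligoadenylate synthetase, had 22.6, 29.2, 27.6 and 37.6 TPM in 3D, against 8.94, 11.5, 16.1 and 10.8 TPM in 2D, and rose by 1.24 ± 0.22 (adjusted p = 0.00158). For these 3 genes the groups were fully apart. IFIT1, which binds RNA caps that lack host methylation, had 9.73, 6.58, 6.66 and 9.71 TPM in 3D, against 3.44, 1.21, 1.66 and 1.42 TPM in 2D, and rose by 1.68 ± 0.29 (adjusted p = 0.0013). IFITM3 had 1329, 1411, 1259 and 1174 TPM in 3D, against 960, 1046, 946 and 858 TPM in 2D, and rose by 0.44 ± 0.09 (adjusted p = 0.00382). These were again apart, but the change in IFITM3 was small beside that of IFIT1.

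IFI27, a mitochondrial effector, had 25.2, 23, 21.6 and 74.0 TPM in 3D, against 2.63, 26.9, 0.99 and 5.54 TPM in 2D, and rose by 2.41 ± 0.72 with groups that overlapped (adjusted p = 0.0228). XAF1, which promotes cell death, had 1.16, 2.23, 5.12 and 6.28 TPM in 3D, against 0, 0, 0.08 and 1.86 TPM in 2D, and rose by 1.66 ± 0.50 with groups that overlapped (adjusted p = 0.0239). The calls of IFI27 and XAF1 were lost when single libraries were left out, with adjusted p of up to 0.0636 for IFI27 (without 2D replicates 1 or 3 or 3D replicate 4) and up to 0.0759 for XAF1 (without 2D replicates 1, 2 or 3 or 3D replicates 3 or 4).

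BST2 had 255, 242, 248 and 226 TPM in 3D, against 429, 308, 406 and 329 TPM in 2D, and fell by 0.59 ± 0.12 (adjusted p = 0.0041). ISG15 had 746, 672, 616 and 605 TPM in 3D, against 818, 810, 1035 and 869 TPM in 2D, and fell by 0.42 ± 0.11 (adjusted p = 0.012). The change in ISG15 was near the median of all genes: with median-ratio scaling, which moved that median to −0.05 and the split of all calls to 2403 higher and 2623 lower (1773 and 3313 as deposited), it was −0.21 (adjusted p = 0.173). The other 11 calls held under that scaling. IFITM1 (320, 345, 299 and 299 TPM in 3D, against 357, 360, 284 and 327 TPM in 2D) and IFITM2 were high in both and not called. The other tested genes not called were IFIH1, IFIT2, IFIT3, IFI35, ISG20, MX1, MX2, OAS2, OAS3 and OASL.

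In the wider pathway, TYK2, a kinase of the interferon receptor, fell by 1.81 and SOCS3, a feedback inhibitor, rose by 1.62, and of 14 receptor and kinase genes 1 rose and 2 fell. Of 17 genes that lead to IFNB1 none rose and 4 fell (MAVS, DHX58, NOD1 and NOD2), while 25.2% of all genes fell. Of 36 other interferon-stimulated genes 6 rose and 5 fell, with LAP3 higher by 1.74 and UBE2L6, the enzyme that charges ISG15, higher by 1.55. Of 15 genes that lean to interferon gamma 3 rose and 8 fell, with HLA-B lower by 2.13. Of 21 inflammatory genes driven by NF-kB 19 rose and 1 fell, with IL1B higher by 4.22. Other cell types moved with the groups: the 10 granulocyte markers summed to 286 to 434 TPM in 3D, against 1639 to 2976 TPM in 2D, with 3 at 0 in 3D, and the 12 erythroid markers to 27.7 to 1724 TPM in 3D, against 3427 to 4416 TPM in 2D. The 10 megakaryocyte markers summed to 23.5 to 51.7 TPM in 3D, against 790 to 1368 TPM in 2D. Their part in the result was not tested.

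**Figure D3:**
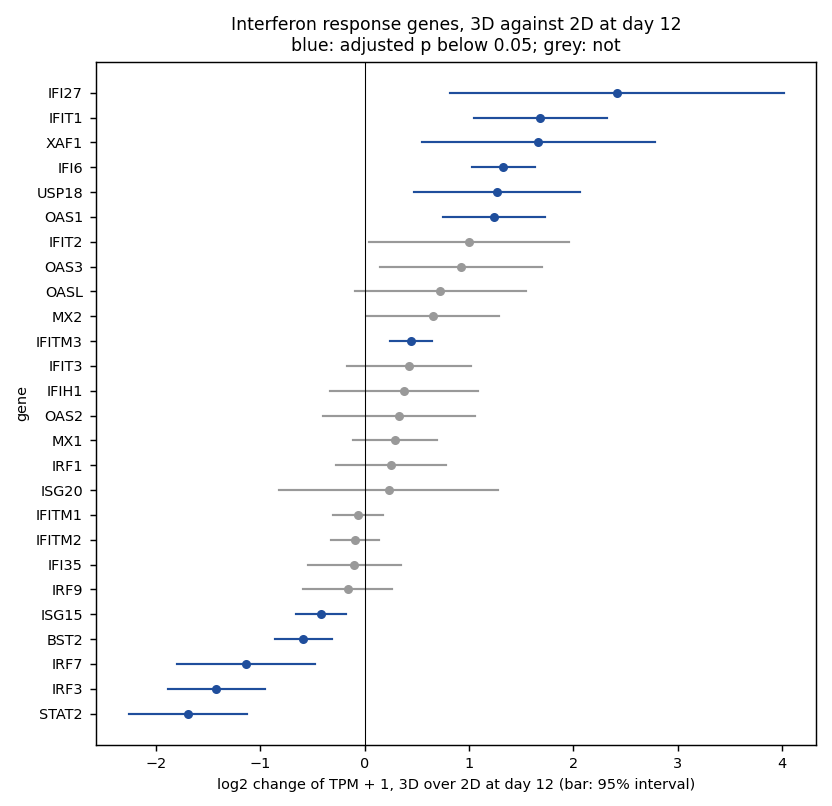
Log2 change of TPM + 1, 3D over 2D at day 12, for the 26 genes tested (points) with 95% intervals (bars) over 4 libraries each. IFI27, IFIT1, XAF1, IFI6, USP18 and OAS1 lie at 1.24 to 2.41, and STAT2, IRF3 and IRF7 at −1.14 to −1.70.

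Within 3D culture without FBS, the summed level of the effectors was highest at day 12, and every later day was set against the same 4 day 12 libraries. IFITM1, ISG15, IFI6 and IFITM2 fell on days 16, 19 and 23, and by day 23 the fall took in members of the IFIT, OAS and MX families. Of the 29 tested genes none rose and 6 fell at day 16 (all genes 10.2% and 6.65%), none rose and 5 fell at day 19 (6.36% and 5.82%), and 1 rose and 14 fell at day 23 (10.5% and 15.3%). At unadjusted p below 0.05 limma gave 9, 8 and 18 genes in either direction. The share of all genes at that threshold was not counted, so these counts cannot be set against it. The median changes were −0.17, −0.35 and −1.26, beside 0.18, 0.04 and −0.10 for all genes. The summed level of the 24 effectors averaged 5040 TPM at day 12, 2771 at day 16, 2243 at day 19 and 1295 at day 23. Most of that sum comes from the IFITM genes, ISG15, IFI6 and BST2. Single effectors could be higher on a later day: BST2 averaged 243 TPM at day 12 and 358 TPM at day 16, and OAS3 averaged 5.94 and 8.95 TPM on those days, neither of them called.

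IFITM1 had 320, 345, 299 and 299 TPM at day 12, 3.76, 16.4 and 9.88 TPM at day 16, 12.4, 25.2 and 9.34 TPM at day 19 and 11.1, 2.52 and 3.41 TPM at day 23. It fell by 5.03, 4.36 and 5.79 (SE 0.67, highest adjusted p = 6.62e-05), the widest fall of a gene above 0 on all days. IFI6 had 696, 686, 753 and 735 TPM at day 12, 92.0, 124 and 134 TPM at day 16, 236, 225 and 177 TPM at day 19 and 125, 102 and 112 TPM at day 23. It fell by 2.62, 1.76 and 2.66 (SE 0.24, highest adjusted p = 1.88e-05), and day 19 lay above both its neighbours. ISG15 had 746, 672, 616 and 605 TPM at day 12, 104, 229 and 196 TPM at day 16, 230, 268 and 201 TPM at day 19 and 340, 248 and 245 TPM at day 23. It fell by 1.97, 1.502 and 1.26 (SE 0.27, highest adjusted p = 0.00115). No library of a later day reached the day 12 range in any of these 3 genes.

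IFITM2 fell by 0.93, 1.38 and 2.35, and IFITM3 by 0.81 at day 19 and 2.10 at day 23, with 366, 265 and 278 TPM at day 23, against 1329, 1411, 1259 and 1174 TPM at day 12. IFI27 had 25.2, 23, 21.6 and 74.0 TPM at day 12, 0, 1.99 and 0 TPM at day 16 and 13.97, 11.9 and 13.9 TPM at day 19, and was listed at 0 in all 3 libraries of day 23. It was called at days 16 and 23 (adjusted p = 2.46e-08 and 2.69e-09) and not at day 19. MX1, a GTPase that traps viral particles, had 13.4, 10.2 and 9.45 TPM at day 16 and 13.9, 6.55 and 7.94 TPM at day 23, against 34.1, 27.4, 42.2 and 28.9 TPM at day 12. It fell by 1.497 ± 0.50 at day 16 (adjusted p = 0.0428) and 1.75 ± 0.50 at day 23 (adjusted p = 0.0123), and its call at day 16 was lost in 11 alternatives, among them each that left out a library.

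At day 23 IFIT1 (−2.40), IFIT3 (−1.55), OAS1 (−1.98), OASL (−1.89), ISG20 (−2.02) and IFI35 (−1.84) were also below day 12. OAS1 had 8.85, 5.44 and 5.85 TPM at day 23, against 22.6, 29.2, 27.6 and 37.6 TPM at day 12 (adjusted p = 0.00695). IFI35, a partner of the transcription factor BATF, had 19.6, 16.2 and 16.5 TPM at day 23, against 68.8, 67.7, 62.4 and 59.8 TPM at day 12 (adjusted p = 0.00528). Among the signalling factors IRF3 rose, with 95.03, 56.7 and 91.6 TPM at day 23, against 40.1, 53.8, 35.7 and 26.0 TPM at day 12 (1.05 ± 0.31, adjusted p = 0.0158). IRF1 fell, with 3.85, 5.09 and 3.17 TPM at day 23, against 10.3, 10.9, 7.68 and 5.92 TPM at day 12 (−0.93 ± 0.33, adjusted p = 0.0435). So IRF3 moved against the effectors, while IRF1 moved with them. The calls of IRF1, IRF3, IFIT1, IFIT3, ISG20 and MX1 at day 23 were each lost in at least 1 alternative, with adjusted p of up to 0.156, and the other 9 were called in all. For IRF1, IRF3, IFIT1, IFIT3 and ISG20 several libraries of day 12 or day 23 did this when left out, and for MX1 only day 23 replicate 2 did. The call of IFITM3 at day 19 was lost without any of the day 19 libraries or day 12 replicates 1, 2 or 3, with adjusted p of up to 0.0874.

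IRF7, IRF9 and STAT2 were not called on any of the 3 days in the fit of all 3D libraries. In the fit without the E. coli libraries STAT2 (0.80, adjusted p = 0.0197) and IRF9 (0.65, adjusted p = 0.0276) were called higher at day 16, and IRF7 (−0.98, adjusted p = 0.0406) lower at day 19. IRF9 had 86.3, 54.8 and 69.1 TPM at day 16, 81.6, 49.6 and 53.0 TPM at day 19 and 46.6, 40.6 and 42.1 TPM at day 23. STAT2 had 33.9, 28.3 and 29.5 TPM at day 16, 35.7, 25.7 and 21.4 TPM at day 19 and 19.8, 20.3 and 26.2 TPM at day 23. IRF7 had 30.3, 17.5 and 32.5 TPM at day 16, 11.3, 18.6 and 9.83 TPM at day 19 and 19.6, 24.5 and 12.1 TPM at day 23.

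With median-ratio scaling the median change of all genes was −0.08 at day 16, −0.09 at day 19 and −0.11 at day 23. The split of all calls was then 771 higher and 1463 lower at day 16 (1364 and 890 as deposited) and 684 and 1185 at day 19 (851 and 779 as deposited). No called gene changed sign. The 8 monocyte markers summed to 1198 to 1273 TPM at day 16, 1850 to 1906 at day 19 and 4623 to 5099 at day 23, against 4640 to 6574 TPM at day 12. The 12 lymphoid markers summed to 7.55 to 17.3 TPM at day 16, against 198 to 227 TPM at day 12, and the 10 granulocyte markers to 17.4 to 28.8 TPM, against 286 to 434 TPM. The 8 endoderm markers, 6 or 7 of them at 0, summed to 5.32 to 8.1 TPM at day 12, 46.4 to 55.3 at day 16, 44.6 to 79.9 at day 19 and 179 to 190.4 at day 23. Their part in the result was not tested. In the wider pathway at day 23, 4 of 35 other interferon-stimulated genes rose and 11 fell, with LY6E lower by 2.87, and 4 of 15 receptor and kinase genes rose and 1 fell, with IFNAR1 higher by 1.83 and SOCS3 lower by 2.32. Of 17 genes that lead to IFNB1 4 rose, and of 21 inflammatory genes driven by NF-kB 3 rose and 12 fell.

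**Figure D4:**
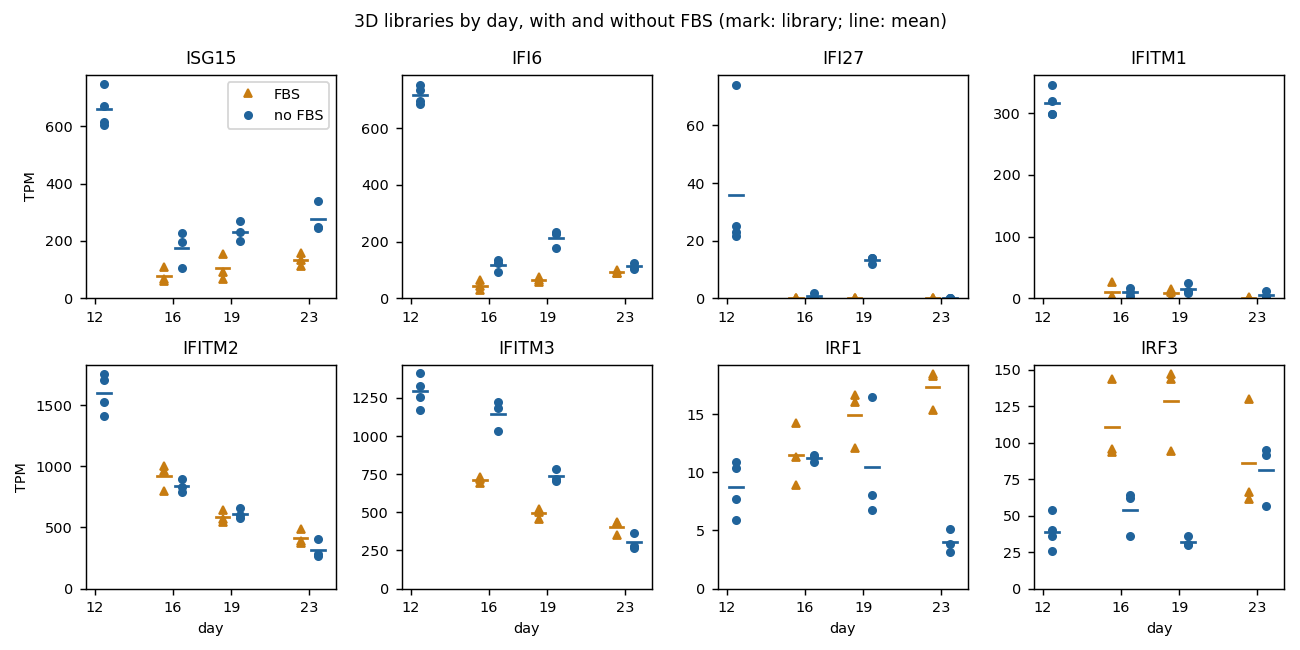
TPM of selected genes in 3D culture by day, with FBS (triangles, left of each day) and without (circles, right), 1 mark per library and lines at the means. Day 12 has no FBS group. ISG15 and IFI6 are highest at day 12, and the FBS marks of ISG15 lie below those without FBS at days 19 and 23.

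FBS, the usual abbreviation of fetal bovine serum, was set against no FBS at days 16, 19 and 23. On average over the 3 days ISG20, IRF3, IRF1, MX2 and STAT2 were higher with FBS, and IFI6, ISG15, OAS3, IFITM1 and IFI27 were lower. Of the 29 tested genes 5 rose and 5 fell (all genes 18.6% and 16%), with a median change of −0.28, beside 0.04 for all genes. These shares of the tested genes are near those of all genes, and effectors stood on both sides.

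IRF3 had 61.6 to 147 TPM (median 95.9) in the 9 FBS libraries, against 30.03 to 95.03 TPM (median 56.7) in the 9 without, and rose by 1.005 ± 0.19 (adjusted p = 0.000295). IRF1, a factor of both interferon arms, had 8.87 to 18.5 TPM (median 15.3) with FBS, against 3.17 to 16.5 TPM (median 8.02) without, and rose by 0.81 ± 0.21 (adjusted p = 0.00365). STAT2 had 28.8 to 64.4 TPM (median 39.2) with FBS, against 19.8 to 35.7 TPM (median 26.2) without, and rose by 0.57 ± 0.17 (adjusted p = 0.0131). Pooled over the 3 days, the groups overlapped in these 3 factors, as they did in every gene of this comparison. Within each single day, STAT2 was higher in every FBS library than in any without, and IFI6 was lower. That did not hold on every day for IRF1 or IRF3. ISG20 had 4.2 to 47.5 TPM (median 19.2) with FBS, against 0 to 6.44 TPM (median 2.08) without, and rose by 2.64 ± 0.43 (adjusted p = 4.69e-05). IFI6 had 27.9 to 100.3 TPM (median 63.9) with FBS, against 92.0 to 236 TPM (median 125) without, and fell by 1.12 ± 0.15 (adjusted p = 3.69e-06). ISG15 had 61.3 to 158 TPM (median 109) with FBS, against 104 to 340 TPM (median 230.0) without, and fell by 1.13 ± 0.17 (adjusted p = 1.18e-05). ISG20 and ISG15, both named as interferon-stimulated, moved in opposite directions. OAS3 had 0.14 to 5.6 TPM (median 1.9) with FBS, against 2.95 to 13.1 TPM (median 6.36) without, and fell by 1.34 ± 0.26 (adjusted p = 0.000344). IFI27 was listed at 0 in all 9 FBS libraries, and in 5 of the 9 without (adjusted p = 5.42e-05). MX2 (0.79, adjusted p = 0.0399) and IFITM1 (−1.10, adjusted p = 0.0417) lost their calls in other settings, with adjusted p of up to 0.0922 and 0.107. IRF7 and IRF9 were not called, with IRF7 at 7.65 to 50.3 TPM with FBS, against 9.83 to 32.5 TPM without, and IRF9 at 48.2 to 95.8 TPM with FBS, against 40.6 to 86.3 TPM without. At day 23 the 8 monocyte markers summed to 2014 to 2335 TPM with FBS, against 4623 to 5099 TPM without, the 12 lymphoid markers to 32.5 to 40.0 TPM, against 155 to 180 TPM, and the 8 endoderm markers to 16.4 to 39.8 TPM, against 179 to 190.4 TPM. Their part in the result was not tested.

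By day, 2 genes rose and 3 fell at day 16 (all genes 8.09% and 10.4%), 2 rose and 5 fell at day 19 (12.9% and 12.7%) and 2 rose and 1 fell at day 23 (8.99% and 5.11%). ISG20 rose and ISG15 fell on each day. Single libraries decided some of these calls: at day 16 ISG15 lost it without the no-FBS replicate 2 (adjusted p = 0.0539) and ISG20 without the FBS replicate 2 (adjusted p = 0.0521), and at day 23 ISG20 lost it without the FBS replicate 1 (adjusted p = 0.0593). ISG15 lost its call at day 23 without FBS replicate 3 or no-FBS replicate 1, with adjusted p of up to 0.0846. At day 19 ISG20, OAS3 and IFIH1 lost theirs without several libraries, with adjusted p of up to 0.202, 0.166 and 0.198. The effect of FBS itself differed between days in IRF1, IRF3, IFI6 and IFI27, by the interaction of FBS and day, which was called in 13.9% of all genes. The change in IRF1 was 0.01 at day 16, 0.56 at day 19 and 1.88 at day 23 (interaction adjusted p = 0.0328). The change in IRF3 was 1.04, 1.94 and 0.03 on the same days (adjusted p = 0.0227), and that in IFI6 was −1.41, −1.69 and −0.25 (adjusted p = 0.0184). IRF1 thus parted late and IRF3 and IFI6 early. Without FBS replicate 2 or no-FBS replicates 1 or 3 of day 23, 2 interactions were called in place of 4, and the share of all genes was not counted there. IFI27 was above 0 without FBS mainly at day 19 (adjusted p = 0.000145). At day 23 median-ratio scaling turned the split of all calls to 886 higher and 951 lower, against 1203 and 684 as deposited, with the median of all genes at 0.00 in place of 0.16. In the wider pathway the mean over days gave 6 risen and 4 fallen of 15 receptor and kinase genes, 4 and 4 of 17 that lead to IFNB1, 9 and 8 of 35 other interferon-stimulated genes (SIGLEC1 higher by 2.31, LAP3 lower by 1.47), 4 and 7 of 17 that lean to interferon gamma, and 4 and 14 of 21 driven by NF-kB.

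Over all 11 groups, the genes that never reached a level at which a change could be read were RSAD2, IFI44L, GBP1, CXCL9 and CXCL11. RSAD2, the antiviral enzyme viperin, was highest in SP6A (1.39 and 3.22 TPM) and listed at 0 in both E. coli libraries. IFI44L was highest in 1 library of day 19 with FBS (4.2 TPM), GBP1 in 1 of day 23 (5.52 TPM), CXCL11 in 1 2D library (0.75 TPM), and CXCL9 was above 0 in 1 SP6A library alone (0.1 TPM). CXCL10 was above 0 in every SP14 and SP6A library (4.58 to 5.73 TPM) and in none of the 9 FBS or 4 2D libraries. Its highest values lay in replicate 1 of day 19 without FBS (9.1 TPM) and replicate 4 of 3D day 12 (6.08 TPM). It was not called in SP14 or SP6A against day 12.

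The day 12 single-cell library shows which cells of the 3D culture carried these genes. It held 8159 barcodes, of which 7961 passed the filters and 7592 cells remained after 369 predicted doublets were removed, with a median of 16617 UMIs (unique molecular identifiers, 1 per captured RNA molecule). It shared 17 barcodes with the day 7 library and 24 with the day 9 library. With 1 library no test is possible, and the 95% intervals cover counting error only. The cells fell into 14 clusters, made without the 35 genes and without the other pathway genes. Clusters 4, 5 and 6, which expressed 14 of 14 macrophage markers, are called macrophage-like (2110 cells). They are led by CCL3 and IL1B (cluster 4, 724 cells), by SPP1 and TREM2 (cluster 5, 715 cells) and by CD163L1 and MRC1 (cluster 6, 671 cells). The rest held stroma-like, cardiac or smooth muscle-like, granulocyte-like, endothelial-like and other cells, and clusters 3, 7, 13 and 14 stayed unnamed. Stroma-like means cluster 1 alone, whose stroma markers summed to 24612 CPM. Those markers were also high in unnamed clusters 3, 7 and 13 (24737.9, 28035.5 and 13194.7 CPM). In the cardiac or smooth muscle-like cluster 2 they summed to 14758 CPM.

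IFNB1 was not detected in the macrophage-like cells, 0 of 2110, which allows a share of up to 0.142% of cells with a UMI by the limit of 3 counts and of 0.175% by the exact interval. Across all cells 5 IFNB1 UMIs were counted, all in 2 megakaryocyte-like cells, and CXCL9 had 2 UMIs. Most effectors were higher in macrophage-like cluster 5 than in its neighbours. ISG15 had 286 CPM, UMIs scaled to the total of the cluster (interval 278 to 294), in cluster 5, 120 (116 to 124) in cluster 4 and 89.0 (85.1 to 93.1) in cluster 6. IFI6 had 235 CPM (228 to 243) in cluster 5, 61.2 (58.4 to 64.2) in cluster 4 and 51.4 (48.4 to 54.4) in cluster 6. IRF7 had 52.5 CPM (49.1 to 56.1) in cluster 5, 17.0 (15.5 to 18.6) in cluster 4 and 15.8 (14.2 to 17.5) in cluster 6. MX1 and OAS1 had the same order, with 79.5 and 42.8 CPM in cluster 5. In the erythroid-like cells, which served as a gauge of free RNA, ISG15 had 13.2 CPM, IFI6 6.84, IRF7 3.87, and MX1 and OAS1 0.684 each, all below the macrophage-like clusters.

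Other members were carried by other cells. IFIT1 was highest in cluster 13 (136 CPM, interval 125 to 147), which is led by ERBB4 and PODXL, and had 59.8 CPM (56.3 to 63.4) in stroma-like cells, against 12.6 CPM (11.8 to 13.5) over the macrophage-like cells. BST2 had 666 CPM (642 to 691) in cluster 13 and 531 CPM (521 to 541) in stroma-like cells, against 131 CPM (128 to 133) in macrophage-like cells. IFITM3 had 992 CPM (978 to 1005) in stroma-like cells, against 314 CPM (310 to 319) in macrophage-like cells. IFI44L was highest in endothelial-like cells (14.99 CPM, interval 11.9 to 18.6). IFITM1 had 30.7 CPM (28.2 to 33.3) in stroma-like cells, against 8.03 CPM (7.36 to 8.74) in macrophage-like cells. In bulk 3D libraries of day 12 the 10 stroma markers summed to 4.72 to 75.3 TPM, with none at 0 in all 4. In 2D they summed to 1.08 to 1.55 TPM. In single cells they summed to 261, 318 and 260 CPM in macrophage-like clusters 4, 5 and 6. The sum in stroma-like cells was 24612 CPM. Each bulk sum thus lay below those of the macrophage-like clusters and far below that of stroma-like cells, though TPM and CPM are scaled differently. The part of other cells in the bulk levels above was not tested.

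**Figure D5:**
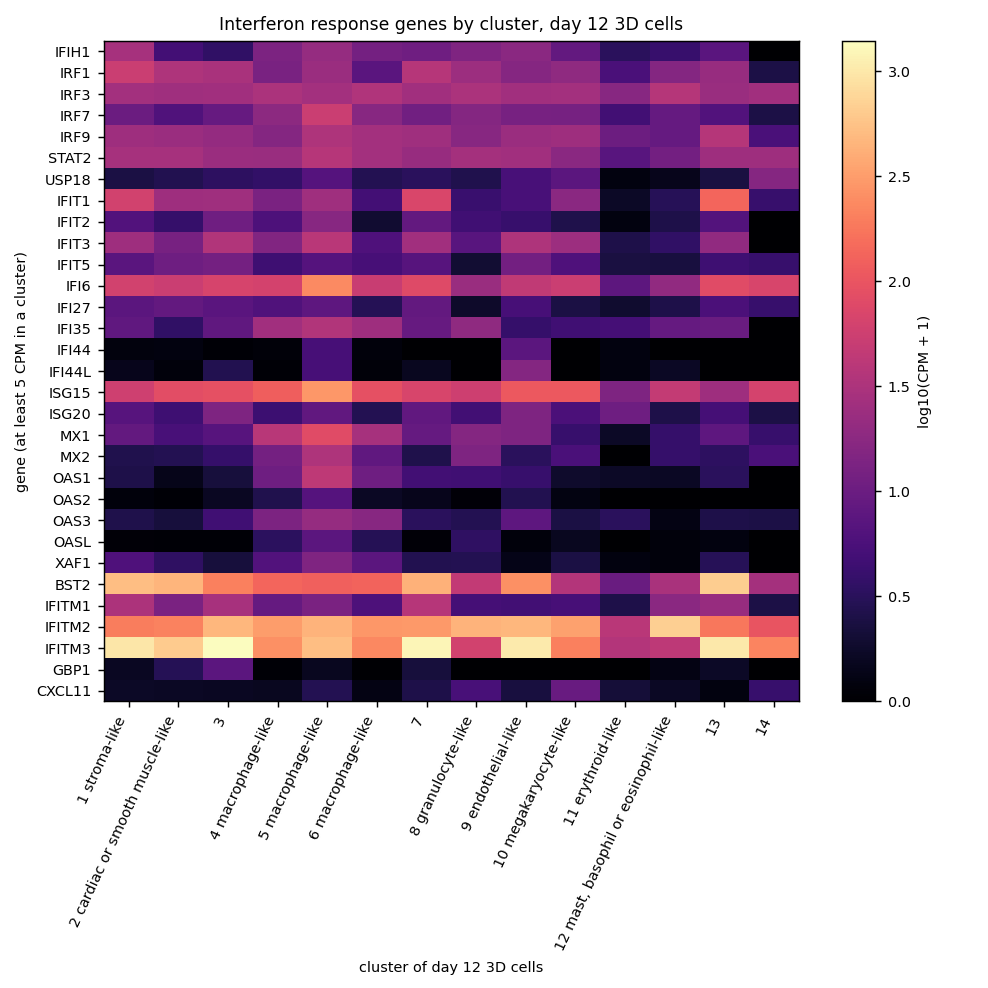
Level of the genes with at least 5 CPM in a cluster (rows), as log10(CPM + 1) by colour, in the 14 clusters of day 12 3D cells (columns) from 1 library. Cluster 5 holds the highest ISG15, IFI6, MX1, IRF7 and OAS1 of the macrophage-like clusters, and IFIT1, BST2 and IFITM3 are highest outside them.

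Cells with many effectors at once were counted over 18 core effectors. At least 5 of the 18 had a UMI in 729 of 7592 cells (9.60%, interval 8.95 to 10.3%). The share was 36.2% (32.7 to 39.9%) in cluster 5, 23.1% (20.04 to 26.3%) in cluster 4 and 17.0% (14.2 to 20.05%) in cluster 6, and at most 6.56% in the other clusters. These clusters differ in depth, with median UMIs of 21027, 36706 and 31837. After thinning each cell to 3000 UMIs the share was 7.44% (5.63 to 9.62%) in cluster 5, 0.974% (0.392 to 2.00%) in cluster 4 and 0.303% (0.0368 to 1.09%) in cluster 6. At equal depth the cells with many effectors were thus mostly in cluster 5.

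Genes outside those 18 were then read in the 729 cells and in the 6863 others, whose median UMIs were 27829 and 15936. IRF7 had 40.9 CPM (38.3 to 43.6) in the cells with at least 5 effectors, against 11.7 CPM (11.1 to 12.3) in the others. IFI35 had 35.1 CPM (32.7 to 37.6), against 12.4 CPM (11.9 to 13.1). IRF9 and STAT2 were higher by less, at 33.7 and 36.9 CPM, against 19.7 and 22.6 CPM. IRF3 had 27.4 CPM (25.3 to 29.7), against 27.6 CPM (26.8 to 28.6), and BST2 had 223 CPM (217 to 229), against 235 CPM (233 to 238). So IRF7 and IFI35 went with the effectors from cell to cell in this library, while IRF3 had the same level within counting error. These cells also differ in type, as 540 of the 729 were macrophage-like.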

How the data were processed

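Bulk RNA was deposited by the authors as 1 table of TPM for 58735 genes in 32 libraries of 11 groups, with 0 further value columns, on build hg38 per the submitters' processing notes. Those notes name Trim Galore 0.4.4, HISAT2 and HTSeq 0.11.1, without saying which step produced these values. Single-cell counts of UMIs per gene were made by the authors with Cell Ranger on GRCh38, per the submitters' processing notes. The chromatin samples were not analysed here.

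Libraries were grouped by the labels. TPM were turned into log2(TPM + 1), genes with a mean of at least 1 TPM in a fit were kept, and groups were compared with limma 3.58.1 (R 4.3.3, moderated test with a trend, Benjamini-Hochberg adjustment over all genes, threshold 0.05). The fit of 3D and 2D at day 12 held 8 libraries and 13131 genes, and that of all 3D groups 28 libraries and 13384 genes. It was tested on simulated data. E. coli was set against the mean of the 4 groups of days 12, 16, 19 and 23 without FBS. Errors of log2 changes are standard errors.

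Day 12 cells needed 1000 UMIs, 500 genes and at most 15% mitochondrial counts. Scrublet (expected rate 0.06) removed doublets, and Leiden clustering at resolution 0.5 used 2000 variable genes without the 35 genes and the pathway genes (scanpy 1.11.5, leidenalg 0.10.2, Python 3.11.15). Intervals are exact Poisson for CPM and exact Clopper-Pearson for shares. Promoter letters come from RefSeq.

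The 35 genes, the pathway lists and the tests were chosen with earlier results of these data known. All 35 genes are accounted for. Values in every library are given for called genes from the largest change, up to 12 per direction, and for the signalling factors, and up to 4 called genes with the lowest adjusted p per pathway list are named. The alternatives were other pseudocounts, filters, scalings and weights, a replicate block, leaving out each library, a fit without E. coli and other unexposed groups for E. coli.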

Additional observations from a re-analysis of the deposited data

Results flagged for a closer look

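In 4 of the 52 sets of 4 libraries checked, the highest library lay far from the other 3, where chance gives about 1 in 20. The measure is the gap to the nearest library over the whole range, read against Dixon's 95% critical value. IRF9 in 3D at day 12 had 55.2 TPM in replicate 3, against 39.7 to 41.6 TPM in the other replicates (0.879). IFI27 in 3D at day 12 had 74.0 TPM in replicate 4, against 21.6 to 25.2 TPM in the others (0.932). STAT2 in 2D had 66.4 TPM in replicate 4, against 54.0 to 55.3 TPM in the others (0.895). XAF1 in 2D had 1.86 TPM in replicate 4, against 0 to 0.08 TPM in the others (0.957).

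The effect of FBS differed between days 16, 19 and 23 in 4 of the 29 tested genes by the interaction test in limma, which called 13.9% of all genes, about the same share. The adjusted p was 0.0328 for IRF1, 0.0227 for IRF3, 0.0184 for IFI6 and 0.000145 for IFI27. The calls of IRF1, IRF3 and IFI6 were lost in other settings, with adjusted p of up to 0.0983, 0.0693 and 0.0537.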

How the results depend on the processing

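Over the values of single genes, 1705 alternatives kept the direction and the side of the threshold, 199 kept the direction but lost the call, and 2 reversed. The reversed values were IRF7 under E. coli without replicate 2 (0.35, against −4.39 without replicate 1) and IFI27 under E. coli against day 23 alone (0.17). The number of genes called stayed within 1.5 times in 202 alternatives and moved further in 26. Calls over all genes were not counted for these alternatives, apart from median-ratio scaling. With array weights the counts were 12 at day 16, 10 at day 19, 8 for FBS at day 16, 6 for FBS at day 23, 8 for FBS by day, 16 for SP6A, 16 for SP14, 4 for SP14 against SP6A and 8 for E. coli. In the fit without the E. coli libraries they were 8 at day 19, 8 for FBS at day 16, 11 at day 19, 7 at day 23 and 8 for FBS by day, and IFNB1 was not tested there. Without the filter on low values they were 4 for FBS at day 19 and 1 for SP14 against SP6A, and without the trend 1 for SP14 against SP6A. The cause was not tested. Leaving out each library gave 10 to 12 genes for 3D against 2D, 5 to 6 at day 16, 4 to 5 at day 19, 11 to 12 at day 23, 8 to 13 for FBS on average, 4 to 5, 5 to 9 and 2 to 3 for FBS at days 16, 19 and 23, 2 to 5 for FBS by day, 5 to 9 for SP6A, 6 to 10 for SP14, 0 for SP14 against SP6A and 15 to 25 for E. coli. With the replicate block the counts were 12 for 3D against 2D, 5, 5 and 12 at days 16, 19 and 23, 10 for FBS on average, 5, 7 and 3 for FBS by single day, 4 for its interaction, 7 for SP6A, 9 for SP14, 0 for SP14 against SP6A and 21 for E. coli. Libraries with the same number did not deviate together (r from −0.124 to 0.035), so the numbers do not pair them. In single cells, keeping doublets gave a summed level of 1599 CPM over the 35 genes and a share of cells with at least 5 core effectors of 10.5% in place of 9.60%. That share was 1.15% after thinning, 17.0% at a minimum of 4 effectors and 5.41% at 6. Depth is unknown for the bulk libraries, so a gene listed at 0 there is not shown to be absent.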

Other observations

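Levels over whole single-cell libraries, 1 per day, were set side by side for days 7, 9 and 12. ISG15 had 61.3, 83.0 and 104 CPM, IFI6 had 5.86, 22.9 and 73.5 CPM, MX1 had 0.9999, 9.38 and 23.3 CPM, and IFIT1 had 4.50, 7.03 and 25.6 CPM. Over the same days IRF3 had 26.8, 27.5 and 27.6 CPM and IFITM3 had 680, 429 and 590 CPM. The day and the library cannot be told apart here, and the mix of cells was not held constant.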
